A study of Homo sapiens with 16 samples.

Results

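The regions described here were distal H3K27ac regions that carried a peak in every one of 16 deposited peak lists, so that acetylation there was present in each condition and could differ only in strength or extent. Overlapping peaks of all lists, down to a shared 1 bp, were joined into merged regions. A merged region was a member if it was under 10 kb wide, had a peak in all 16 lists and lay more than 2 kb from every protein-coding transcript start of GENCODE 44 on hg38. The rule returned 16934 members of 64545 merged regions (26.2%) and of 28337 regions with a peak in all 16 lists (59.8%). Because a peak was required in every list, an enhancer that appeared or vanished with treatment is not among them. Members were thus chosen by the measured presence of a peak in each list, its width and its position, and not on the strength of a peak beyond its having been called.

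The lists came from H3K27ac ChIP-seq in 2 established triple-negative breast cancer lines of human origin, MDA-MB-231 and Hs578T. For each line there were control cells that had been through the CRISPR procedure and knockout (KO) cells for Fn14, in which TNFRSF12A, the gene of the receptor Fn14, had been targeted with an inducible CRISPR vector and a pair of guides. The number of KO clones was not stated in the sources used here, so genotype cannot be told apart from a property of the clone. All groups were serum starved for 8 h, and each genotype was then either left untreated or given the cytokine TWEAK for 48 h at 10 ng/ml, with a fresh dose at 24 h, which made 8 groups of 2 lists. The study's methods call the replicates of the ChIP-seq biological, while the labels do not give the culture of each list, so the p-values below measure the spread between these samples.

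Acetylation of lysine 27 on histone H3 is laid down by the acetyltransferases p300 and CBP and marks active enhancers and promoters. TWEAK, a ligand of the TNF superfamily, binds Fn14, which recruits TRAF adaptors and feeds the canonical and non-canonical NF-kB pathways and the kinases that activate AP-1. NF-kB dimers bind G-rich sites at the enhancers of cytokine and survival genes, and AP-1 factors occupy a large part of the enhancers of mesenchymal cells. A region is called below by the protein-coding gene whose start is nearest, which says nothing of the gene it acts on.

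The sequences of the regions that the TWEAK comparison turned on are shown first. Each is the 300 bases at the centre of the stretch that carried a peak in all 16 lists, on the plus strand of hg38. Capitals mark matches, on either strand, to a loose NF-kB pattern (GGG, then 5 bases of any kind, then CC) and to a strict NF-kB pattern (GGG, then 2 bases of any kind, then TTTCC), which is a subset of the loose pattern. The AP-1 pattern TGANTCA was marked in the same way and matched in none of these 7 windows. The following 4 regions gained most fold enrichment with TWEAK in control cells.
SELPLG region, chr12:108616985-108617284: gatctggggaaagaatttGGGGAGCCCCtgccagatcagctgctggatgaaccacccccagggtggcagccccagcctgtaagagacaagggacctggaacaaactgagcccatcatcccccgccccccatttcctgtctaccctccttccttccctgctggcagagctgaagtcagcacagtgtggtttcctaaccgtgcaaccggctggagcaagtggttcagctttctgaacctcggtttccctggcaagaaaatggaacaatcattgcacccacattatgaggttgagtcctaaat
GPR107 region, chr9:130072811-130073110: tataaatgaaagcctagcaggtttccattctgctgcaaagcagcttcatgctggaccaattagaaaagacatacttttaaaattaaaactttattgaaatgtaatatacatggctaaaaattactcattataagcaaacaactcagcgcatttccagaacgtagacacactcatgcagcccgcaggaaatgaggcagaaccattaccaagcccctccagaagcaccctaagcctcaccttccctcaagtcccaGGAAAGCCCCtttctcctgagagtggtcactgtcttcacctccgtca
TBX2 region, chr17:61325602-61325901: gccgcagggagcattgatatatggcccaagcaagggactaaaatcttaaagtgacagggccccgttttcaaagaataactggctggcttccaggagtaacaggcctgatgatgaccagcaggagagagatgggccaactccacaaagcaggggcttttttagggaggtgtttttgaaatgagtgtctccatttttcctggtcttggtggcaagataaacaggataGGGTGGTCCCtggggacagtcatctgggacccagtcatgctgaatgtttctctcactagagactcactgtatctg
RFX8 region, chr2:101464052-101464351: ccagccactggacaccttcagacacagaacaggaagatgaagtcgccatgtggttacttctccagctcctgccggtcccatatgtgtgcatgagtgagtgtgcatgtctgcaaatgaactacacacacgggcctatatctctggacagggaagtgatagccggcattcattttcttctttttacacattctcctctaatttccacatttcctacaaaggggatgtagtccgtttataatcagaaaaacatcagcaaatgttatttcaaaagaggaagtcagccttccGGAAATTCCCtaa
All 4 windows held the loose NF-kB pattern, and those of GPR107 and RFX8 also held the strict pattern. For comparison, 3 of the 4 regions that lost most are shown.
PLEKHA7 region, chr11:16981359-16981658: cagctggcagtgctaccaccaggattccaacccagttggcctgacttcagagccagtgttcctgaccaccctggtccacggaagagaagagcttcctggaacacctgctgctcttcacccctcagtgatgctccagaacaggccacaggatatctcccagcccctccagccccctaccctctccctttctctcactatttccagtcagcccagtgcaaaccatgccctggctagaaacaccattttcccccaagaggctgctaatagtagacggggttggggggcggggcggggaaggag
INHBB region, chr2:120398554-120398853: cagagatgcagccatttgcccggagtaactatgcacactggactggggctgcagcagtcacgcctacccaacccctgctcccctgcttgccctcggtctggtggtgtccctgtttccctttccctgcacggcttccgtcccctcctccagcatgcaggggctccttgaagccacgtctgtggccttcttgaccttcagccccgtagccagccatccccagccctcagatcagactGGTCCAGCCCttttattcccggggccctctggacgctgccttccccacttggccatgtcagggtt
CCDC97 region, chr19:41298656-41298955: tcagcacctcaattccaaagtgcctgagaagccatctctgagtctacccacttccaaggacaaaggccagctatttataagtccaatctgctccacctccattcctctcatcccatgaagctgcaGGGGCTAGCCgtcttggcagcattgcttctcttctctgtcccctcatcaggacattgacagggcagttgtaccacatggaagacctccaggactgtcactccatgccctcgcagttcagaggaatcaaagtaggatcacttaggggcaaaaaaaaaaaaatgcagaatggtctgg
The loose pattern matched in the INHBB and CCDC97 windows and the strict pattern in none of the 3. Stretches of 60 bases around the strict NF-kB pattern follow for 4 further strengthened members, because of the patterns searched its share had the largest ratio between members that gained and members that lost. The COPB1 region was chosen after its values were seen, and the other 3 were among the 12 most strengthened members.
TNFSF10 region, chr3:172607404-172607463: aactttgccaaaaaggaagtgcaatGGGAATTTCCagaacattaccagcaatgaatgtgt
GATA5 region, chr20:62502011-62502070: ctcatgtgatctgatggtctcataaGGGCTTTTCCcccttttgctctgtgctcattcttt
SCAF8 region, chr6:154653921-154653980: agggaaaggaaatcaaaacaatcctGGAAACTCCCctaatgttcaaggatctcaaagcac
COPB1 region, chr11:14446817-14446876: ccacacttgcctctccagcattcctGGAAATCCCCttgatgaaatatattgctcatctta

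The lists held 39544 to 47197 peaks and gave, for each peak, its fold enrichment over background averaged over the peak. A member's level in a list was the highest fold enrichment of its peaks there, and its covered length was the number of its bases under a peak. The lists hold no reads, so depth is unknown. Across members, log2 levels of the 2 lists of a group correlated with a mean r of 0.963 (range 0.947 to 0.978, 16934 regions, a description across regions). Starts of the mesenchymal genes VIM, AXL, CD44, CAV1 and ZEB1 had a peak in 16 of 16 lists, those of ESR1, PGR, CDH1 and ELF5 in 0, and those of the blood genes PTPRC, CD3E and SPI1 in 0. Starts of the luminal genes GATA3, KRT8, KRT18 and ERBB3 also had a peak in 16 lists, and that of FOXA1 in 2. Of all 64545 merged regions, 84 had a peak in all 8 MDA-MB-231 lists and no Hs578T list, and 181 the reverse. Regions with a peak in only some lists of a line are in neither count. The start region of TNFRSF12A kept a peak in all KO lists, with a fold enrichment of 16.2 to 22.3 in KO lists against 32.6 to 38.2 in control lists, so acetylation there does not check the edit itself.

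Most members were short, single peaks far from gene starts. Their median width was 2561 bp (interquartile range 1856 to 3727) and their median distance to a start 34.4 kb (13.3 to 91.3). Regions were placed by any overlap with protein-coding genes. Of members, 13.7% overlapped an exon, 37.8% overlapped a gene but no exon (intron) and 48.5% overlapped no protein-coding gene (intergenic). In 14441 members (85.3%) every list had exactly 1 peak. Median GC content was 44.4%, against 63.8% in the 10625 promoter-near regions present in all lists. The median level over members was 5.50 to 7.43 in the 16 lists, below that of promoter-near regions in each list (7.29 to 10.5 over the lists), and 58.9 to 75.6% of the members' width was covered. At the edges of the rule, the widest member lay near MRPS10 at 9991 bp and the narrowest distal region left out for width lay near MYC at 10013 bp. The member nearest to a start was 2001 bp from RAD1, while the promoter-near region farthest from one was 2000 bp from BIRC7. The 1863 distal regions with a peak in 15 lists had a median fold enrichment of 3.83, against 6.42 in members.

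In control cells, TWEAK strengthened and weakened near equal numbers of these ever-present regions. Over both lines, 4712 members gained fold enrichment and 4567 lost it (limma on log2 fold enrichment, centred on the median of all 28337 regions in each list, Benjamini-Hochberg adjusted p under 0.05). These were 27.8% and 27% of members, where 22.8% of all regions tested were called higher and 24.2% lower. Among promoter-near regions the shares were 14.4% and 20.2%. Changes were modest in most members and large in some. The median fold of a strengthened member was 1.37 (interquartile range 1.26 to 1.59), with 461 changed at least 2-fold and 25 at least 4-fold. The median fold of a weakened member was also 1.37 (1.26 to 1.57), with 252 changed at least 2-fold and 0 at least 4-fold. A member had to keep a peak in every list, so a region weak before TWEAK had less room to fall than to rise. The part of this limit in the counts was not tested. Without centring, the split was 5230 higher and 3350 lower, so the balance of directions depends on the scaling. In these bulk samples a weaker mark in every cell and its loss from some cells cannot be told apart. On centred values, both TWEAK lists exceeded both untreated lists in each line in 4635 members and lay below them in 4378, against 22.9% and 23.4% of all regions. The corresponding counts in KO cells were 312 and 487, with 2.21% and 2.52% of all regions.

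The member that gained most lay 5.67 kb from the start of SELPLG (chr12:108615902-108618657, intergenic), which encodes the P-selectin ligand PSGL-1. Its fold enrichment was 4.27 and 4.74 in untreated and 52.9 and 52.8 in TWEAK-treated MDA-MB-231 control cells, 4.04 and 3.09 against 28.2 and 26.9 in Hs578T control cells, 4.70 and 5.09 against 5.97 and 4.31 in MDA-MB-231 Fn14 KO cells, and 2.97 and 3.02 against 3.49 and 3.02 in Hs578T Fn14 KO cells. TWEAK-treated control lists stood far above all 12 others in both lines. Treated and untreated KO lists overlapped in MDA-MB-231, and in Hs578T the treated KO lists were slightly above the untreated ones. The change in control cells was 3.19 ± 0.105 (SE, adjusted p = 5.03e-17) on the log2 scale, a 9.11-fold gain, and 0.12 in KO cells. An intron of GPR107, a multi-pass membrane protein gene, held the next region (chr9:130070616-130074864). Here the levels were 5.35 and 7.31 in untreated and 50.6 and 47.7 in TWEAK-treated MDA-MB-231 control cells, 4.06 and 4.39 against 33.6 and 33.1 in Hs578T control cells, 4.83 and 3.64 against 4.58 and 3.83 in MDA-MB-231 Fn14 KO cells, and 4.34 and 4.72 against 4.16 and 4.53 in Hs578T Fn14 KO cells. The log2 change was 2.91 ± 0.0928 (SE, adjusted p = 5.03e-17) in control cells and 0.01 in KO cells. The third, inside BCAS3 and 72.1 kb from TBX2 (chr17:61323103-61327756), which encodes a T-box repressor, read 2.67 and 3.16 in untreated and 20.3 and 21.5 in TWEAK-treated MDA-MB-231 control cells, 3.43 and 3.95 against 26.9 and 26.7 in Hs578T control cells, 4.28 and 3.55 against 4.25 and 4.19 in MDA-MB-231 Fn14 KO cells, and 3.76 and 3.71 against 3.77 and 3.47 in Hs578T Fn14 KO cells. It rose by 2.79 ± 0.0927 (SE, adjusted p = 5.03e-17) in control cells. The 12 most strengthened members were taken only from called members whose treated and untreated control lists were separate in each line, on centred values. The same held for the 12 most weakened, so a lack of overlap in these members was set by the choice.

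Of the other members among the 12 most strengthened, 4 are given with their values. Near TNFSF10, the gene of the death ligand TRAIL, an intergenic region 81.7 kb from the start (chr3:172605173-172608880) read 3.85 and 4.26 in untreated and 28.2 and 27.3 in TWEAK-treated MDA-MB-231 control cells, 4.16 and 3.02 against 16.7 and 20.1 in Hs578T control cells, 7.38 and 5.72 against 7.14 and 6.54 in MDA-MB-231 Fn14 KO cells, and 3.60 and 2.86 against 2.81 and 3.56 in Hs578T Fn14 KO cells. Its log2 change was 2.50 ± 0.106 (SE, adjusted p = 5.14e-15), with TWEAK lists above untreated lists in both control lines, which the choice required. The RFX8 region (chr2:101462723-101466149), in an intron of an RFX-family factor gene, gave 6.44 and 6.92 in untreated against 40.5 and 42.6 in TWEAK-treated MDA-MB-231 control cells and 4.16 and 5.07 against 28.8 and 27.2 in Hs578T control cells, and ranged from 3.42 to 10.4 over the 8 KO lists. A region 39.6 kb from HAS2 (chr8:121598841-121601809), which encodes a hyaluronan synthase, gave 3.52 and 3.52 in untreated against 19.6 and 22.0 in TWEAK-treated MDA-MB-231 control cells and 3.12 and 3.24 against 15 and 14.1 in Hs578T control cells, with KO lists from 3.07 to 6.07. An intronic region of RUNX2 (chr6:45589184-45592224), the master factor of osteoblasts, gave 2.95 and 3.40 in untreated against 17.9 and 19.7 in TWEAK-treated MDA-MB-231 control cells and 3.31 and 3.64 against 15.2 and 17.7 in Hs578T control cells, with KO lists from 3.03 to 4.42. In each of these 3 members the TWEAK lists of a control line lay above its untreated lists, again by the rule of choice. The rest of the 12 most strengthened lay near ASB7, ZC3H12C, GATA5, FGF16 and SCAF8. Over the 12, log2 changes ran from 2.26 to 3.19 (4.79-fold to 9.11-fold) with adjusted p of at most 2.74e-12, and from -0.16 to 0.15 in KO cells.

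**Figure D1:**
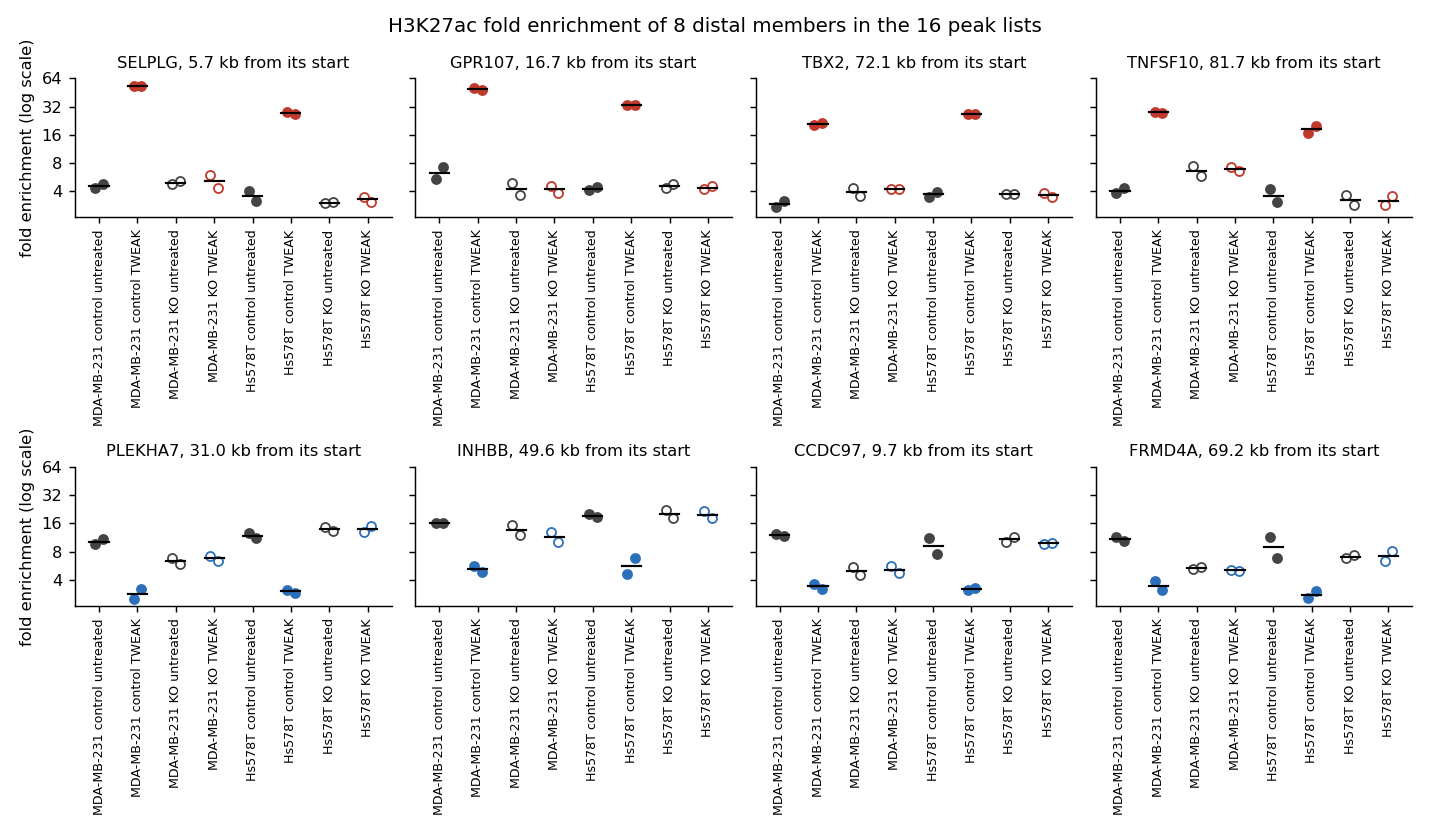
Fold enrichment (log axis) in each of the 16 peak lists for 8 members named in the text, 1 point per list, by group of line, genotype and treatment. Filled points are control and open points KO lists, colour marks TWEAK, and bars are the geometric means of the groups. At SELPLG the 4 TWEAK lists of control cells lie between 26.9 and 52.9 and the other 12 lists between 2.97 and 5.97.

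Of the 12 most weakened members, 4 are given with their values. The member that lost most was in an intron of PLEKHA7 (chr11:16980301-16983376), which encodes an adherens junction protein. Its fold enrichment was 9.54 and 10.9 in untreated and 2.47 and 3.20 in TWEAK-treated MDA-MB-231 control cells, 12.6 and 11.1 against 3.10 and 2.90 in Hs578T control cells, 6.89 and 5.91 against 7.22 and 6.35 in MDA-MB-231 Fn14 KO cells, and 14.7 and 13.3 against 12.8 and 15.1 in Hs578T Fn14 KO cells. Within each control line the treated lists were the lowest, which the rule of choice required. The log2 change was -1.99 ± 0.0938 (SE, adjusted p = 2.69e-14) in control cells, a 3.97-fold loss, and 0.08 in KO cells. The intergenic region 49.6 kb from INHBB (chr2:120395746-120400749), which encodes a subunit of activin B, read 16.1 and 16.2 in untreated and 5.58 and 4.87 in TWEAK-treated MDA-MB-231 control cells, 20.1 and 18.6 against 4.57 and 6.78 in Hs578T control cells, 15.5 and 12 against 13.1 and 10.1 in MDA-MB-231 Fn14 KO cells, and 22.5 and 18.1 against 21.5 and 18.3 in Hs578T Fn14 KO cells. It fell by 1.78 ± 0.101 (SE, adjusted p = 4.96e-13) on the log2 scale. Near ACTR3 (chr2:113975751-113981021), which encodes a core subunit of the actin-nucleating Arp2/3 complex, values were 14.0 and 13.7 in untreated against 3.71 and 3.82 in TWEAK-treated MDA-MB-231 control cells and 17.3 and 17.0 against 5.28 and 7.88 in Hs578T control cells, with KO lists from 6.58 to 20.5. In an intron of MAP4 (chr3:48033135-48035816), a microtubule-associated protein gene, they were 10.0 and 9.44 in untreated against 3.42 and 2.91 in TWEAK-treated MDA-MB-231 control cells and 11.6 and 12.6 against 3.90 and 3.80 in Hs578T control cells, with KO lists from 6.14 to 13.6. At both, treated and untreated control lists did not overlap within a line, by the same rule. The others of the 12 lay near OR1M1, CCDC97, FRMD4A, FOXL3, LAIR2, LONRF2, IRX1 and HAUS5. Over the 12, log2 changes ran from -1.99 to -1.61 (3.97-fold to 3.06-fold lower) with adjusted p of at most 9.37e-11, and from -0.26 to 0.12 in KO cells.

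Both control lines were then compared, since a change seen in each could be looked up in lists the other did not contribute. In MDA-MB-231 control cells 3714 members rose and 3481 fell, where 17.5% and 18.1% of all regions were called, and without centring 4072 rose and 2333 fell. In Hs578T control cells 3236 rose and 2989 fell, against 15.2% and 14.3%. The members that rose in MDA-MB-231 had a median log2 change of 0.48 in Hs578T, 97.8% of them above 0, and 2620 were called higher there and 2 lower. Those that fell in MDA-MB-231 had a median of -0.48 in Hs578T, 97.1% of them below 0, with 2325 called lower and 0 higher. Across the 16934 members the log2 changes of the 2 control lines had an r of 0.89, given as a description of regions that share a genome and a peak caller. In fold enrichment no member passed the test of a difference in the TWEAK effect between the lines (0 higher and 0 lower by limma, where 0% of all regions were called in either direction), while 1310 had an unadjusted p under 0.05, and no centring or a replicate block called 1 higher and 1 lower. If no region changed, a share of about 0.05 would still have an unadjusted p under 0.05. Unadjusted counts, here and below, are therefore not calls. In covered length the effect was more positive in Hs578T at 3 members and less at 2 (0.0141% and 0.00706% of all regions), which lay near FLRT2, CBLN1 and LMBR1 and near XIRP2 and SAMD9 and are named here after their values were seen. That total of 5 ran up to 43 when single lists were left out, without MDA-MB-231 control untreated replicate 2. Between the lines, r of log2 levels across members was 0.870 untreated and 0.899 with TWEAK in control cells, and 0.833 and 0.830 in KO cells. Within a control line, r between untreated and TWEAK-treated lists was lower, at 0.810 in MDA-MB-231 and 0.822 in Hs578T. The identity of the lines was not checked, since peak lists hold no genotypes, and the lines are named as the labels name them.

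**Figure D2:**
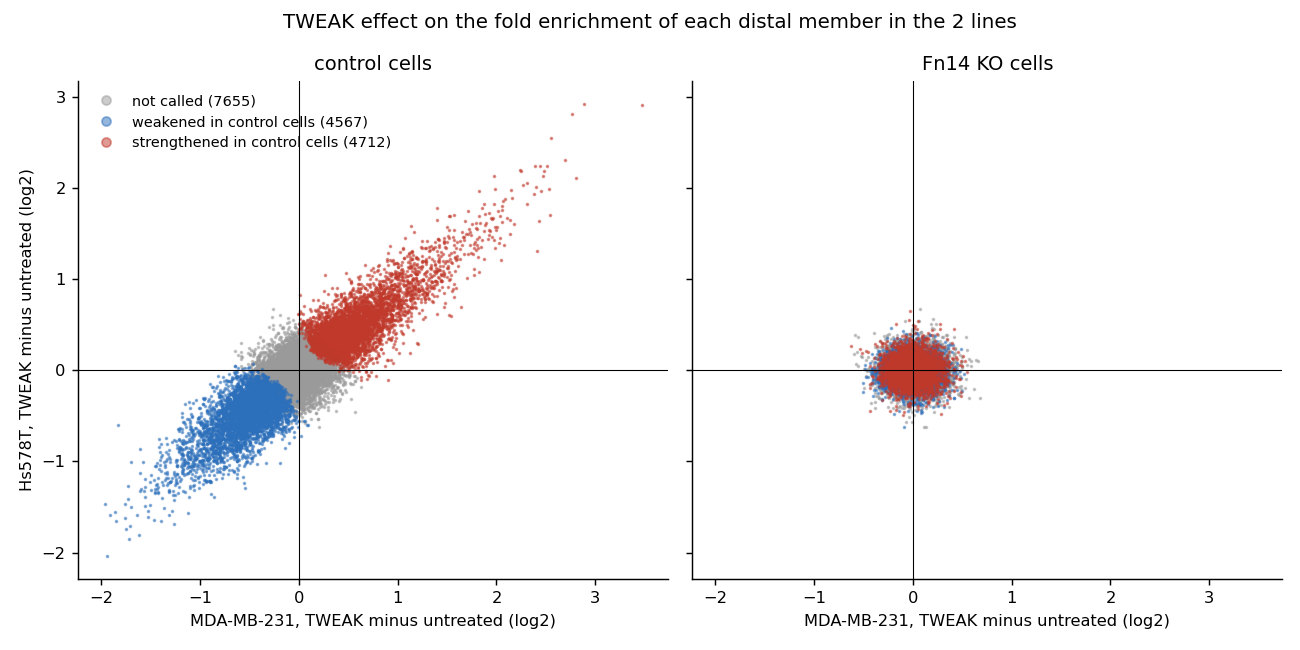
Log2 change with TWEAK in MDA-MB-231 (horizontal) against Hs578T (vertical), 1 point per member, for control cells and for Fn14 KO cells on the same axes, coloured by the call over both control lines. Control points follow the diagonal (r 0.89) and KO points gather around 0 (r 0.01).

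In Fn14 KO cells the same comparison called no member. Over both KO lines, 0 members rose and 0 fell by limma, where 0% of all regions were called, and 634 members had an unadjusted p under 0.05. Such unadjusted counts are not read as changes, since a share of about 0.05 of unchanged regions would pass. Within MDA-MB-231 KO cells the counts were 0 and 0 (876 with an unadjusted p under 0.05, background 0% each way). Within Hs578T KO cells 0 rose and 1 fell (390 with an unadjusted p under 0.05, where 0% of all regions were called higher and 0.00353% lower). That region, in an intron of TEX35, changed by -0.62 in Hs578T KO cells (adjusted p = 0.0493) and lost the call under most other settings. The median absolute log2 change over members was 0.272 in control and 0.0634 in KO cells. The TWEAK effect itself differed between genotypes in 3593 members in the higher and 3110 in the lower direction, where 16.7% and 16% of all regions were called, and without centring in 4222 and 1812. Of the strengthened members 3511 (74.5%) passed this test as well, and of the weakened members 3050 (66.8%), a description only, since the test holds the same control lists that chose them. In the KO comparison, whose differences share no list with the control ones, the median log2 change was -0.01 for strengthened and -0.02 for weakened members. At SELPLG the difference in effect was 3.07 ± 0.149 (SE, adjusted p = 3.47e-13), and at PLEKHA7 it was -2.07 ± 0.133 (SE, adjusted p = 3.79e-11).

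**Figure D3:**
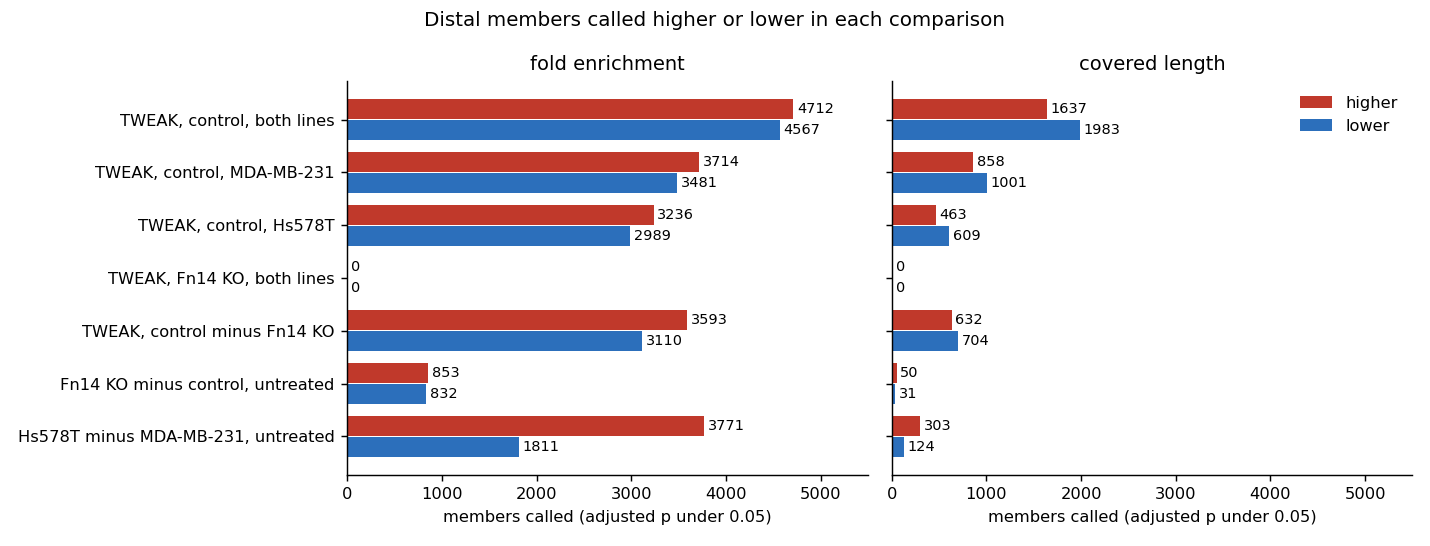
Number of members called higher or lower (adjusted p under 0.05) in 7 comparisons of fold enrichment and of covered length, as bars from 0. For fold enrichment, control cells with TWEAK show 4712 higher and 4567 lower members and KO cells show 0 in either direction.

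Levels were more spread among members in TWEAK-treated than in untreated control lists, a difference given as values with no test. In MDA-MB-231 control cells the SD of log2 fold enrichment over members was 0.786 and 0.822 untreated and 0.876 and 0.882 with TWEAK. In Hs578T control cells it was 0.736 and 0.747 untreated and 0.831 and 0.832 with TWEAK. KO lists showed no such rise, with 0.674 and 0.703 against 0.625 and 0.670 in MDA-MB-231 and 0.780 and 0.790 against 0.772 and 0.778 in Hs578T. Strengthened and weakened members had close levels in untreated KO lists, which enter no TWEAK difference in control cells. The median fold enrichment there was 6.82 and 6.84, and 5.78 for members not called. For members changed at least 2-fold it was 5.58 for those that rose and 8.97 for those that fell. With members split into 4 equal classes of this level, 26.4, 24.2, 27.9 and 32.9% of members were strengthened, from the weakest to the strongest class, and 17.6, 29.2, 31.7 and 29.3% weakened. Because the rule required a peak in every list, weak regions could fall little and remain members. These levels and shares by direction are therefore shaped in part by the rule. Distance from a start made little difference, with 26.5 to 29.4% strengthened and 25.4 to 28.2% weakened over the distance classes.

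Covered length moved with strength in fewer members. In control cells 1637 members grew longer and 1983 shorter with TWEAK, where 7.59% and 9.16% of all regions were called, and without centring 993 and 2141. Leaving out Hs578T control TWEAK replicate 1 lowered the total from 3620 to 2367. Of strengthened members 1365 also lengthened and 38 shortened, and of weakened members 1580 shortened and 30 lengthened. In KO cells 0 members changed in length over both lines by limma (959 with an unadjusted p under 0.05, background 0% each way), and leaving out single lists gave 0 to 20, the highest without MDA-MB-231 KO untreated replicate 1. Within MDA-MB-231 KO cells 1 member, near NARS2, was longer with TWEAK (1.84-fold, adjusted p = 0.0476) and 12 were shorter (1.66-fold to 3.62-fold), where 0.00706% and 0.0459% of all regions were called. MUC5B, PGRMC2 and PDE10A were the nearest genes of the 3 that shortened most, and they are named here after their values were seen. Quantile scaling or a replicate block left 0 and 0. Leaving out single lists gave totals from 0 to 107, with 83 longer and 24 shorter without MDA-MB-231 KO untreated replicate 1, 6 and 54 without MDA-MB-231 KO TWEAK replicate 1, 5 and 33 without MDA-MB-231 KO TWEAK replicate 2, and 0 and 0 without MDA-MB-231 control untreated replicate 1 or control TWEAK replicate 2. Within Hs578T KO cells 0 were longer and 0 shorter (653 with an unadjusted p under 0.05). The effect on length differed between genotypes in 632 members toward longer and 704 toward shorter in control cells (2.87% and 3.25% of all regions). The largest gain in length was at a region 131 kb from SPRED1 (chr15:38114169-38121768), which encodes an inhibitor of Ras to ERK signalling. Its covered length in bp was 898 and 858 in untreated and 7042 and 6339 in TWEAK-treated MDA-MB-231 control cells, 1199 and 1017 against 7384 and 5573 in Hs578T control cells, 1361 and 1266 against 1083 and 1911 in MDA-MB-231 Fn14 KO cells, and 1179 and 1256 against 1385 and 1229 in Hs578T Fn14 KO cells. Treated control lists covered most of the region and every other list a small part of it. The change was 2.79 ± 0.166 (SE, adjusted p = 3.23e-06) on the log2 scale, and fold enrichment there rose by 2.03 ± 0.109 (SE, adjusted p = 2.43e-13). The largest loss was 57.7 kb from MEDAG (chr13:30845008-30848615), a gene of adipocyte differentiation. Its covered lengths in bp were 3456 and 3583 in untreated and 205 and 283 in TWEAK-treated MDA-MB-231 control cells, 2240 and 3274 against 225 and 1250 in Hs578T control cells, 2215 and 1902 against 2201 and 1119 in MDA-MB-231 Fn14 KO cells, and 2297 and 3062 against 3443 and 2270 in Hs578T Fn14 KO cells. Treated control lists were the shortest within each line, though Hs578T control TWEAK replicate 2 was longer than MDA-MB-231 KO TWEAK replicate 2. The change was -3.05 ± 0.405 (SE, adjusted p = 0.000416) in length and -0.67 in fold enrichment. PPP2R1B, PDE10A, TRRAP and RUNX2 had the next largest gains (log2 2.43 to 2.69), and NUAK1, CNTRL, AUH and ZMIZ1 the next largest losses (-2.51 to -2.27).

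Genes of cytokine and NF-kB signalling had more strengthened than weakened members nearby. These gene lists were drawn up with earlier results of these data known, and their counts stand beside those of all 28337 regions (22.8% higher, 24.2% lower, median log2 change -0.02). Of 43 members near chemokine and cytokine genes, 28 rose and 6 fell (median 0.33). The region 11.5 kb from CXCL8 (chr4:73725182-73729040), the neutrophil attractant interleukin 8, gave 4.71 and 5.49 in untreated against 14.1 and 16.9 in TWEAK-treated MDA-MB-231 control cells and 4.64 and 5.41 against 11.5 and 11.1 in Hs578T control cells, with KO lists from 4.59 to 6.11. At 22.4 kb from IL1B (chr2:112810672-112813993), the gene of interleukin 1 beta, values were 12.2 and 13.2 in untreated against 34.5 and 35.9 in TWEAK-treated MDA-MB-231 control cells and 14.7 and 14.6 against 31.2 and 35.5 in Hs578T control cells, with KO lists from 10.5 to 15.8. Log2 changes were 1.32 ± 0.0999 (SE, adjusted p = 9.37e-11) and 1.26 ± 0.0734 (SE, adjusted p = 8.47e-13). Regions near CXCL3, a relative of CXCL8, and IL7R, the interleukin 7 receptor chain, rose by 1.23 and 1.30.

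Of 62 members near NF-kB and TNF signalling genes, 28 rose and 13 fell (median 0.12). The region of TNFAIP8 (chr5:119396517-119399328), a TNF-induced inhibitor of apoptosis, gave 2.65 and 2.72 in untreated against 11.3 and 12.7 in TWEAK-treated MDA-MB-231 control cells and 3.68 and 4.28 against 14.0 and 15.8 in Hs578T control cells, with KO lists from 2.99 to 4.16. It rose by 1.96 ± 0.105 (SE, adjusted p = 2.25e-13). At 53.4 kb from TNFAIP3 (chr6:137807296-137813775), which encodes the feedback inhibitor A20, values were 9.23 and 9.54 in untreated against 22.6 and 21.3 in TWEAK-treated MDA-MB-231 control cells and 8.73 and 7.81 against 20.8 and 21.3 in Hs578T control cells, a rise of 1.22 ± 0.0804 (SE, adjusted p = 8.12e-12). A member 6.58 kb from TNIP3, which encodes an A20-binding protein, rose by 1.52. Another, 193 kb from RIPK2, the kinase downstream of NOD receptors, rose by 1.46. Regions nearest to feedback inhibitors and to effectors of the pathway were both among the strengthened. AP-1, ATF and small MAF genes were more evenly divided, with 17 of 54 members higher and 14 lower (median 0.06). Regions near FOSL2 (1.05) and BATF (0.67) rose, and regions near BATF3 (-0.88) and FOS (-0.67) fell.

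Lists tied to invasion were balanced, and within them single loci held strong changes of both signs. Of 159 members near matrix, protease and plasminogen system genes 47 rose and 49 fell (median -0.01). A region 34.7 kb from COL6A2 (chr21:46058251-46063388), a chain of collagen VI, gave 9.91 and 8.75 in untreated against 38.8 and 34.8 in TWEAK-treated MDA-MB-231 control cells and 9.68 and 8.53 against 27 and 31.1 in Hs578T control cells and rose by 1.76 ± 0.0838 (SE, adjusted p = 2.93e-14). PLAUR, the urokinase receptor gene, had a member that rose by 1.27, while a member near COL5A1, a collagen V chain gene, changed by -1.14. Of 80 members near integrin and adhesion genes 27 rose and 26 fell (median 0.01). Near NRP1, the gene of a co-receptor of semaphorins and VEGF, 1 intergenic member 38.2 kb from the start changed by -1.24 ± 0.103 (SE, adjusted p = 4.46e-10) and another 205 kb away by 1.28 ± 0.114 (SE, adjusted p = 1.42e-09). Both members named for CDH13, an atypical cadherin gene, rose (1.49 and 1.03). At the first, untreated MDA-MB-231 lists read 3.28 and 4.04 in control and 8.80 and 8.43 in KO cells. Of 67 members near YAP, TAZ and TEAD genes and their targets 17 rose and 17 fell (median 0.00), with TEAD1 (1.64) and FJX1 (1.53) higher and LATS2, a kinase that restrains YAP, at -1.12. Of 112 members near mesenchymal transition and TGF-beta genes 38 rose and 37 fell (median -0.02). There, regions near TGFBR2, a TGF-beta receptor gene (1.66), and SKI, a repressor of SMAD signalling (1.43), rose, and a pair near BMP4 fell (-1.45 and -1.05).

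Of 170 members near growth factor receptor and EGFR ligand genes, 66 rose and 38 fell (median 0.08). The region 43.5 kb from VEGFC (chr4:176836404-176843284), a growth factor of lymphatic vessels, gave 5.81 and 7.35 in untreated against 24.8 and 28.1 in TWEAK-treated MDA-MB-231 control cells and 10.3 and 10.3 against 29.7 and 32.2 in Hs578T control cells, with KO lists from 6.21 to 8.18. It rose by 1.73 ± 0.0765 (SE, adjusted p = 9.12e-15). The feedback inhibitors SPRED1 and DUSP1, which restrain ERK signalling, had members that rose by 2.03 and 1.13. Of 40 members near cell cycle and MYC genes 15 rose and 9 fell (median 0.02), with a CDK6 region at 0.85 and MYC regions at -1.08, -0.65 and 0.64. Of 21 members near NAD metabolism genes 11 rose and 0 fell (median 0.24). Most of those 11 were at the single NAMPT locus. Of the 8 members nearest to NAMPT, the rate-limiting enzyme of NAD salvage, 7 rose by 0.39 to 1.31 and 1, 66.0 kb away, was at -0.14 (adjusted p = 0.186). In KO cells the 8 ranged from -0.08 to 0.15. No member of any of the 10 lists was called in KO cells (0 higher and 0 lower each).

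**Figure D4:**
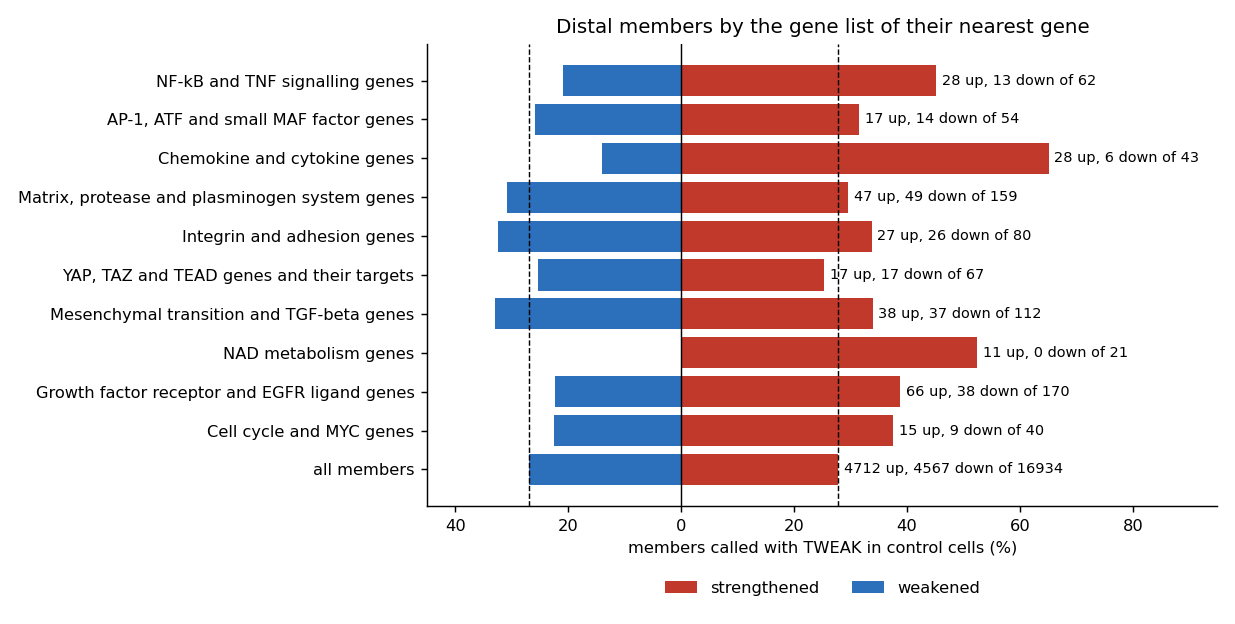
Share of members near the genes of each list that were called higher or lower with TWEAK in control cells (percent), with the counts beside each bar and dashed lines at the shares of all 16934 members. Chemokine and cytokine genes have 28 higher and 6 lower of 43 members and NAD metabolism genes 11 and 0 of 21. Most of those 11 are at the single NAMPT locus.

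Strengthened and weakened members could share a nearest gene, and the counts that follow were not compared with what chance gives. Members were nearest to 6712 genes, of which 931 had at least 5 members. Of these 931 genes, 576 had both strengthened and weakened members. In 6 genes every member was called strengthened, and in 8 every member was called weakened. Genes with some uncalled members and calls in a single direction are in none of these counts. The loci named here were chosen after their values were seen, for holding many called members. At RUNX1, a haematopoietic and epithelial transcription factor gene, 10 of 22 members rose and 6 fell, with log2 changes from -0.65 to 2.12. At MYC 10 of 26 rose and 5 fell (-1.08 to 0.64), and at KLF6, an immediate-early zinc finger gene, 9 of 21 rose and 6 fell (-1.04 to 0.89). Other loci moved mostly one way. All 8 members of FMNL2, a formin that elongates actin filaments, rose (0.27 to 1.08), and 9 of 10 members of ATP2B1, a plasma membrane calcium pump, rose with 0 lower (0.04 to 1.55). By contrast 0 members of IGFBP3, an IGF-binding protein gene, rose and 8 of 9 fell (-0.76 to 0.09). At SHROOM3, a regulator of apical constriction, 0 of 15 rose and 10 fell (-1.05 to 0.10), and at THBS1, the thrombospondin 1 gene, 1 of 16 rose and 10 fell (-1.02 to 0.36). SOX9, an epithelial and cartilage factor gene, had 3 higher and 12 lower of 23 members (-0.94 to 0.50), and EFNA5, an ephrin gene, 2 and 11 of 16 (-0.89 to 0.48). In KO cells the log2 changes at all of these loci lay between -0.23 and 0.25.

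Neighbouring members tended to move in the same direction, the more so the closer they were. Of neighbour pairs in which both were called, 539 of 694 (77.7%) shared their direction at a gap of up to 5 kb, 826 of 1155 (71.5%) at 5 to 20 kb, 1125 of 1827 (61.6%) at 20 to 100 kb and 896 of 1622 (55.2%) beyond 100 kb. Regions that appeared or vanished with TWEAK lay unevenly as well. Of strengthened members 13.3% had within 50 kb a region gained in both control lines (1367 such regions, called in both TWEAK lists and no untreated list of each line), against 6.13% of weakened members and 8.09% of members not called. Regions lost in both lines (742) lay within 50 kb of 3.57% of strengthened, 11% of weakened and 5.77% of uncalled members. The start of the nearest gene moved less clearly. Where that gene had any promoter-near region in all lists, its start counted as strengthened if any such region was called higher. It counted as weakened if none was higher and any was lower, so a mixed start counted as strengthened. The start was strengthened for 22.2% and weakened for 20.4% of strengthened members, and for 15.1% and 34.7% of weakened members. For members not called the shares were 17.8% and 27.6%. For the members strengthened at least 2-fold they were 27.6% and 17.6% (323 members), and for those weakened at least 2-fold 13.5% and 42.1% (171 members). All of these shares come from the same lists as the calls and are descriptions.

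The share of members with the strict NF-kB pattern was higher among those with larger gains, a description with no test. The rule used no sequence, but it used distance from gene starts, which goes with base composition, so each share set beside that of promoter-near regions is also a comparison across GC content. In the 500 bases at the centre of each member, the strict NF-kB pattern on either strand occurred in 3.22% of all members, 5.86% of strengthened, 1.86% of weakened and 2.42% of uncalled members, and in 3.45% of promoter-near regions. Among members strengthened at least 2-fold, such as those of GPR107, RFX8, TNFSF10, GATA5 and SCAF8 printed above, it occurred in 15% (69 of 461), and among those weakened at least 2-fold in 1.98% (5 of 252). Of the 12 most strengthened members 5 held it and of the 12 most weakened 0. The loose NF-kB pattern separated the groups little, with 47.6% of all, 48.0% of strengthened and 48.1% of weakened members, and it was more common in the GC-rich promoter-near regions (82.3%). The AP-1 pattern TGANTCA was a general property of the members: 49.2% held it against 12.5% of promoter-near regions. It differed little by direction, with 51.7% of strengthened, 47.8% of weakened and 48.5% of uncalled members, and 47.1% and 39.3% of those changed at least 2-fold up and down. The TEAD pattern GGAATG was present in 33.1% of all members and the RUNX pattern TGTGGT in 36.2%, against 18.9% and 17.5% of promoter-near regions. A MAF-type pattern, which is the AP-1 pattern with TGC before it and so overlaps it, occurred in 4.52% of strengthened and 3.61% of weakened members. The core of the CTCF motif (CC, then 3 bases of any kind, then AGGGGGC) occurred in 0.638% of members. Strengthened members had a median GC content of 43.2% and weakened members 45.8%. A match is a string of letters and was not tested for binding.

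**Figure D5:**
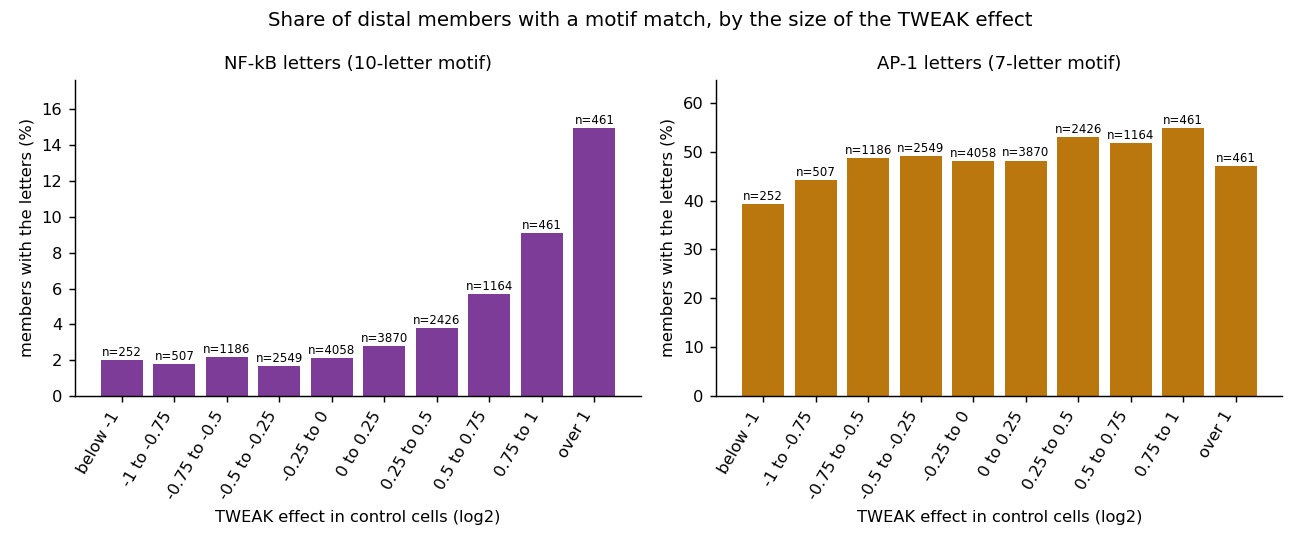
Percent of members with a match to the strict NF-kB pattern and to the AP-1 pattern in their central 500 bases, with the number of members above each bar, by class of log2 change with TWEAK in control cells from most weakened to most strengthened. The share with the strict NF-kB pattern goes from 1.98% in the lowest to 15% in the highest class.

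Untreated KO and control cells differed at many more members in MDA-MB-231 than in Hs578T. Over both lines 853 members were higher and 832 lower in untreated KO than in untreated control cells, where 3.61% and 5.4% of all regions were called, and without centring 268 and 1611. The total of 1685 fell to 840 without MDA-MB-231 control untreated replicate 1, to 1097 and 991 without MDA-MB-231 KO untreated replicate 1 or 2, to 1010 without Hs578T control untreated replicate 1 and to 927 without Hs578T KO untreated replicate 1. Within MDA-MB-231 2424 were higher and 1608 lower, against 10.1% and 13.5% of all regions, and 695 and 3650 without centring, which shifts the median of all regions to -0.22. Without MDA-MB-231 control untreated replicate 1 the counts were 1204 and 679, without MDA-MB-231 KO untreated replicate 1 they were 1563 and 1041, and without its replicate 2 they were 1292 and 879. Beside these counts, the ratio of the median promoter-near to the median member level was 1.51 in untreated control and 1.32 in untreated KO lists of MDA-MB-231, and its part in the result was not tested. Within Hs578T 144 were higher and 419 lower (0.72% and 1.74%), and 75 and 180 without centring. The Hs578T counts fell to 22 and 55 without Hs578T control untreated replicate 1, to 16 and 56 without Hs578T KO untreated replicate 1 and to 76 and 289 without its replicate 2. The difference between KO and control was more positive in Hs578T in 1110 members and more positive in MDA-MB-231 in 2007 (9.06% and 8.06% of all regions), and in 2509 and 622 without centring, which shifts the median of all regions to 0.26. The total of 3117 was 1817 without MDA-MB-231 control untreated replicate 1, 2033 without MDA-MB-231 KO untreated replicate 2 and 1816 without Hs578T KO untreated replicate 1. A region 28.1 kb from IL17A (chr6:52154236-52158320), the gene of a T cell cytokine, was among those that were higher, with levels of 3.26 and 3.45 in untreated and 3.09 and 3.20 in TWEAK-treated MDA-MB-231 control cells, 4.31 and 3.43 against 3.41 and 3.40 in Hs578T control cells, 10.4 and 7.44 against 7.88 and 7.61 in MDA-MB-231 Fn14 KO cells, and 5.03 and 4.59 against 5.80 and 4.97 in Hs578T Fn14 KO cells. All KO lists were above all control lists within each line, though the difference within Hs578T did not pass the test. The log2 difference was 0.95 over both lines, 0.29 ± 0.143 (SE, adjusted p = 0.311) in Hs578T and 1.60 ± 0.143 (SE, adjusted p = 1.92e-07) in MDA-MB-231. The largest fall was near GSG1L (chr16:27780744-27782284), an AMPA receptor accessory gene, with 6.53 and 8.24 in untreated and 4.96 and 5.12 in TWEAK-treated MDA-MB-231 control cells, 10.1 and 6.11 against 4.09 and 4.8 in Hs578T control cells, 3.91 and 3.28 against 4.19 and 4.35 in MDA-MB-231 Fn14 KO cells, and 2.83 and 3.89 against 3.33 and 3.60 in Hs578T Fn14 KO cells. Untreated control lists were above the KO lists in each line, and the log2 difference was -1.05 over both, -0.83 ± 0.180 (SE, adjusted p = 0.00197) in MDA-MB-231 and -1.28 ± 0.180 (SE, adjusted p = 0.000375) in Hs578T. GADD45G, ADAMTSL3 and FOXP1 were also among the higher regions (0.80 to 0.92), and FOXL1, ENSG00000188897, PALM2AKAP2 and ATG101 among the lower (-0.86 to -0.82). At the ATG101 region, which is 2.60 kb from the start of an autophagy initiation gene, TWEAK in control cells changed the level by -0.98 as well. The covered length was called longer in KO cells at 50 and shorter at 31 members (0.236% and 0.198%), a total of 81 that ran from 29 to 188 when single lists were left out.

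Between untreated control cells of the lines, 3771 members were higher in Hs578T and 1811 in MDA-MB-231, where 15.6% and 18.7% of all regions were called, and without centring 2477 and 1805. Promoter-near regions divided the other way, with 574 higher in Hs578T and 3327 in MDA-MB-231. The median promoter-near level was 1.51 ± 0.0194 (SD, n = 2) times the median member level in MDA-MB-231 and 1.22 ± 0.0184 (SD, n = 2) times in Hs578T, both in untreated control lists, so these directions are relative to all regions of a list. The total of 5582 was 3549 without MDA-MB-231 control untreated replicate 1. The region with the largest difference was in FOXP1 (chr3:71048021-71053312), a forkhead repressor gene, with 2.51 and 2.71 in untreated and 2.70 and 3.07 in TWEAK-treated MDA-MB-231 control cells, 12.2 and 13.8 against 8.24 and 10.2 in Hs578T control cells, 6.06 and 4.39 against 5.02 and 4.94 in MDA-MB-231 Fn14 KO cells, and 18.4 and 16.9 against 14.9 and 17.7 in Hs578T Fn14 KO cells. All 8 Hs578T lists were above all 8 MDA-MB-231 lists, and the log2 difference was 2.36 ± 0.137 (SE, adjusted p = 2.55e-11). BMP10, NPAS1, CDH9 and HECW2 were next in Hs578T (1.72 to 2.33). TSPOAP1, DPY19L1, POFUT2, FLNA and RPL10 led in MDA-MB-231 (-1.99 to -1.40). FLNA, which encodes the actin cross-linker filamin A, and RPL10, a ribosomal protein gene, are neighbours on the X chromosome, and both regions also rose with TWEAK in control cells (0.64 and 0.67). Both regions had close levels in every list. In TWEAK-treated MDA-MB-231 control cells these were 97.7 and 96.1 at FLNA and 97.4 and 95.1 at RPL10. Whether they are separate signals cannot be told from peak lists and was not tested. Covered length differed in 303 members toward Hs578T and 124 toward MDA-MB-231 (1.37% and 0.738%), in 380 and 40 without centring, which shifts the median of all regions to 0.11, and in 87, 242 and 107 in all without Hs578T control untreated replicate 2 or 1 or MDA-MB-231 control untreated replicate 1.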

How the data were processed

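H3K27ac ChIP-seq was measured in 16 samples, 2 for each of 8 groups of line, genotype and treatment, with groups taken from the sample titles. Per the study's methods and the submitters' processing notes, the authors ran Trimmomatic on the reads, Bowtie2 for alignment to hg38 and called broad peaks for each sample with MACS2 over input. Tool versions were not given in the sources used here. Each deposited list gives a position, a score (10 times the −log10 q-value), a fold enrichment averaged over the peak, which is a deposited ratio, and p-value and q-value columns as −log10. An average over a broad peak falls when a peak is called wider, so level and covered length are not independent. No reads were used, so depth is unknown and the read-count test named in the study's methods (DiffBind) could not be run.

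Regions were merged and annotated in Python 3.11.15 with GENCODE 44. The maximum fold enrichment and the covered length of all 28337 regions present in the 16 lists were put on the log2 scale with no pseudocount and centred on each list's median. They were fitted with limma 3.58.1 in R 4.3.3 (8 group means, moderated variance with a trend), with Benjamini-Hochberg adjustment over all 28337 regions, and members were read from that fit. A call was an adjusted p under 0.05. The scripts were tested on simulated data. The members and gene lists were chosen with earlier results of these data known. Named regions were the 12 largest gains and losses with TWEAK in control cells among called members whose treated and untreated lists did not overlap in either line, the 5 largest called changes each way in the other comparisons, up to 4 called members per gene list by p-value, and all NAMPT members. Some regions and markers that these rules name are not reported here. Motifs were searched on both strands with pysam 0.24.0. Alternatives covered centring, quantile scaling, a replicate block, filters on low values, distance, q-value and peak number, and leaving out each list.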

Additional observations from a re-analysis of the deposited data

Results flagged for a closer look

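The effect of TWEAK on fold enrichment differed between control and Fn14 KO cells by the interaction test in limma (adjusted p under 0.05), with 3593 members higher and 3110 members lower in effect in control cells. The same test on covered length gave 632 members with a higher and 704 with a lower effect in control cells. The difference between untreated KO and control cells was itself unlike in the 2 lines, with 1110 members higher in Hs578T than in MDA-MB-231 and 2007 lower, by the interaction of genotype and line. Without centring these counts were 2509 and 622, so which line held the larger count turned.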

How the results depend on the processing

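For TWEAK in control cells, the difference between genotypes, KO against control and the difference between lines, counts of members called in fold enrichment were within 1.5 times of the reported value under quantile scaling, no variance trend, a width-weighted mean of peaks, peaks with a −log10 q of 2 or more, equal numbers of peaks and a distance over 5 kb. Testing only regions whose mean value was above the median, which left 6896 members for fold enrichment and 7635 for length, gave 4237 for TWEAK in control cells, 3462 in MDA-MB-231, 3011 in Hs578T, 3277 for the difference between genotypes, 913 for KO against control (2117 in MDA-MB-231, 184 in Hs578T and 1631 for the difference of these) and 2839 between lines in fold enrichment, and 1908, 1 in KO cells and 763 for the difference in length. KO against control in Hs578T (563 as reported) gave 255 without centring. For length in KO against control cells (81 as reported), no centring gave 34 and only members with 1 peak in every list 22, and for length between lines (427) the latter gave 251.

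The replicate numbers did not pair the samples (correlations of deviations 0.0914, 0.0433, -0.0106 and 0.251 over the 4 combinations of line and genotype). A fit with the replicate number as a block gave 9566 members for TWEAK in control cells and 0 in KO cells, and moved length to 43 for KO against control and 196 between lines.

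Leaving out each list in turn, fold enrichment gave 8234 to 9284 members for TWEAK in control cells, 5161 to 7331 in MDA-MB-231, 4197 to 6268 in Hs578T, 0 to 0 in KO cells, 5904 to 6391 for the difference, 840 to 1669 for KO against control and 3549 to 5600 between lines. Length gave 2367 to 3666 for TWEAK in control cells, 0 to 20 in KO cells, 896 to 1376 for the difference, 29 to 188 for KO against control and 87 to 490 between lines. The lowest and highest length counts for KO against control were without MDA-MB-231 KO untreated replicate 2 and MDA-MB-231 control untreated replicate 2. Of the named regions, the TEX35 call in Hs578T KO cells was lost under 19 settings, and a NAMPT region at -0.14 was called at -0.24 without Hs578T control untreated replicate 1. No named region changed direction. Why these values moved was not tested. Peak lists hold no reads, so the precision that depth allows is unknown.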

Other observations

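Members that TWEAK strengthened in Hs578T control cells were looked up in the comparison of untreated KO with untreated control MDA-MB-231 cells, which shares no list with it. Of the 3236 members, 77.4% were higher in MDA-MB-231 KO cells, where 58.4% of all members were, with a median log2 difference of 0.21 and with 972 called higher and 112 called lower. Of the 2989 members weakened in Hs578T control cells, 67.0% were lower in MDA-MB-231 KO cells, where 41.6% of all members were, with a median of -0.14 and with 693 called lower and 145 called higher. The reverse lookup went the other way. Of the 3714 strengthened in MDA-MB-231 control cells, 30.4% were higher in untreated Hs578T KO than control cells, where 45.6% of all members were, with a median of -0.11 and with 14 called higher and 198 called lower. Of the 3481 weakened in MDA-MB-231 control cells, 39.0% were lower in untreated Hs578T KO than control cells, where 54.4% of all members were, with a median of 0.06 and with 46 called lower and 75 called higher. The shares are descriptions across regions, and no test was run on them.

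The share of called members varied by chromosome. On chromosome 12, which holds the SELPLG region, 32.2% of members were strengthened and 23.1% weakened, and on chromosome 19, which holds the OR1M1, CCDC97, LAIR2 and HAUS5 regions, the shares were 20.7% and 28.2%. Members within 2 kb of a lncRNA start were 11.2% of the total.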
